A study of Mus musculus with 11 samples.

Results

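The neuronal genes of the spiral ganglion described here are a list of 33 genes, written by gene symbol, out of 20284 mouse genes with a named probe on the array. They cover 5 subunits of neuronal intermediate filaments, 6 tubulin and microtubule genes, 3 growth cone and adhesion genes, 5 genes of synaptic vesicles, 5 of dense-core granules, 3 neuronal RNA-binding proteins, 2 transcription factors and 4 further neuronal proteins. For each gene the probe with the highest mean signal over the groups was taken, and all 33 had such a probe and passed the filter on dim probes. The rule names the genes by symbol, and measured signal enters through the choice of the brightest probe. The list was chosen with earlier results of these data known.

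The study compared otospheres, the floating spheres that dissociated cochlear cells form in culture, with the native cochlear sensory epithelium (CSE) and with embryonic stem cells (ESCs). The CSE came from ICR mice aged 1 day, with 20 cochleae of 10 mice pooled per preparation, after the spiral ligament and the stria vascularis had been taken away. The dissection notes do not mention the modiolus, the core of the cochlea that houses the ganglion. Otospheres were grown from such tissue for 4 to 5 days in serum-free medium with bFGF and IGF1, passaged 1 time, grown for another 4 to 5 days and strained to keep the small solid spheres. The ESCs were the lines G4-2 (ES1) and D3 (ES2), both at passage 13 and kept without feeder cells in medium with serum and LIF, so the spread between the ESC samples is also the spread between lines.

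The 6 otosphere arrays (OS1 to OS6), 3 CSE arrays and 2 ESC arrays lay on 2 slides, the first with ES1, OS1 to OS3, CSE1 and CSE2, and the second with ES2, OS4 to OS6 and CSE3. Spots well above background made up 55.1% to 71.6% per array and none was saturated. OS1 and OS2 differed by less than the noise between spots, as did OS4 and OS5, and each pair was averaged into 1 sample, named OS1-2 and OS4-5. That left 4 otosphere, 3 CSE and 2 ESC samples, and since the labels do not say which samples came from separate cultures or animals, p-values measure the spread between these samples only. All values are log2 signals after background correction and quantile normalization, given in the order ES1, ES2, then OS1-2, OS3, OS4-5, OS6, then CSE1, CSE2, CSE3, and differences are in log2 units with the standard error (SE) and the adjusted p of limma. A gene was called where the adjusted p was under 0.05. Of 10 pluripotency markers, 9 were lower in otospheres than in ESCs and 9 were lower in CSE than in ESCs, beside 15.6% of all probes in each comparison, and none of the 10 was called between otospheres and CSE. The exception was Nanog, whose probe was not called, with means of 8.38 (ESCs), 9.82 (otospheres) and 10.03 (CSE). In the paper, Nanog was among the genes upregulated only in ESCs, and NANOG protein was not detected in otospheres. The brightest probe taken here does not show that ESC pattern.

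The spiral ganglion holds the first neurons of the hearing pathway. They are bipolar cells with one process at the hair cells and the other in the brainstem, and glia wrap their bodies and axons. Their axons are kept in shape by neurofilaments and microtubules, they release glutamate from synaptic vesicles, and many neurons also store peptides in dense-core granules. RNA-binding proteins of the Elavl and Rbfox families help to set which transcripts a neuron makes, and the repressor REST keeps many of these genes low in cells that are not neurons.

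In CSE, 30 of the 33 genes were well above background on every array and none was absent from all of them. The same was true of 27 genes on both ESC arrays and of 21 genes on all 6 otosphere arrays, while 3 genes were above background on no array in each of these groups. The list therefore does not mark neurons against ESCs, since most of its genes gave signal there. When the 3 groups were tested jointly with the limma F-test, 25 of 33 genes differed, beside 33.8% of all 47997 probes tested.

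**Figure D1:**
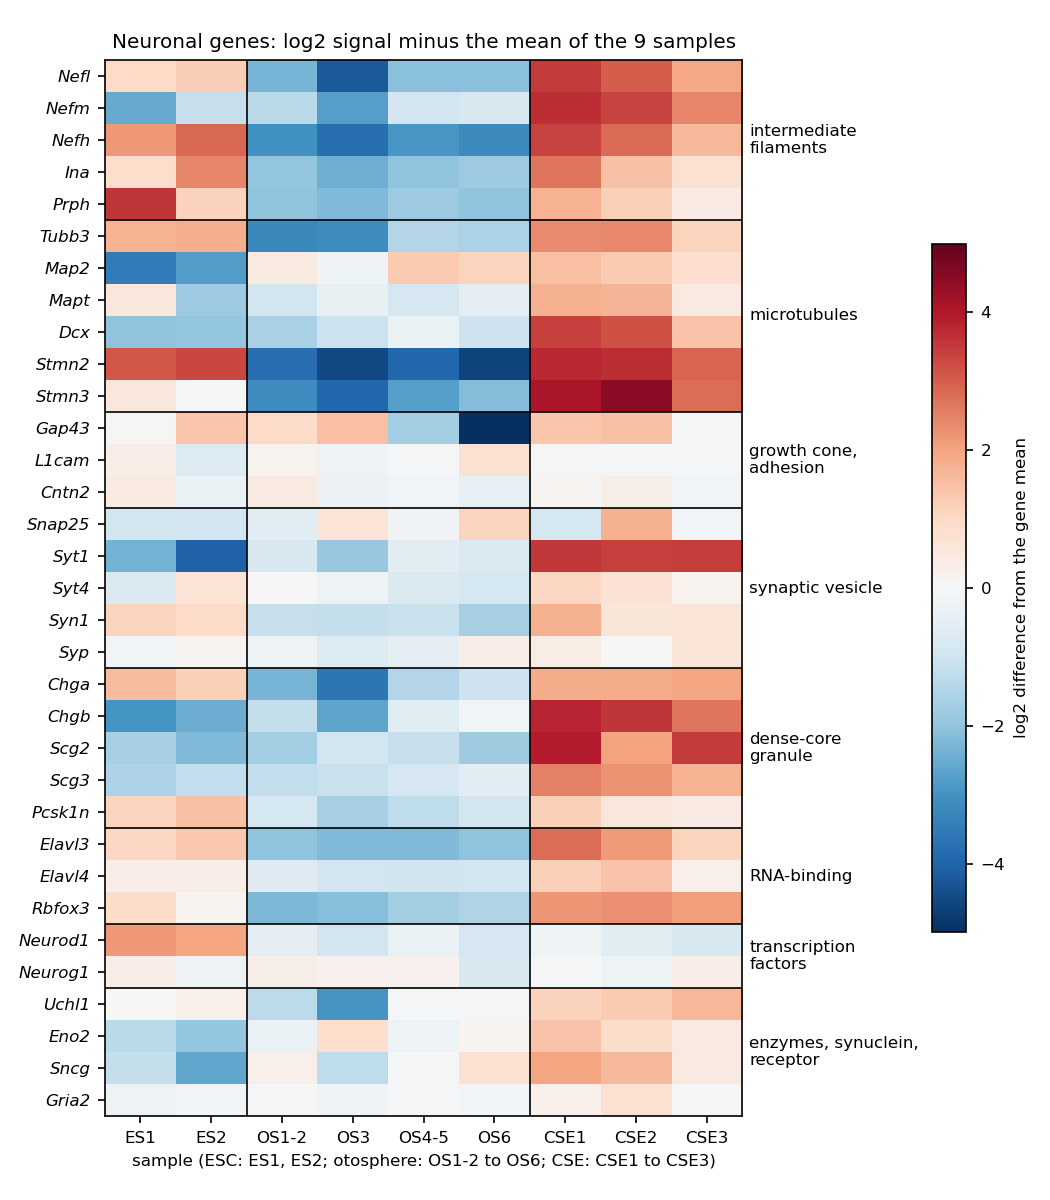
Each row is a gene and each column a sample, and colour gives how far the log2 signal lay from the average of that gene, from blue (below) to red (above). Horizontal lines separate the functional groups of genes, and most rows are red in CSE and blue in the 4 otosphere samples, with ESCs red in some rows (Stmn2, Nefh, Tubb3) and blue in others (Chgb, Dcx, Map2).

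Otospheres had lower signals than CSE for most of the neuronal genes. Of the 33 genes, 20 were lower and none higher in otospheres, against 6.19% of all probes called lower and 4.84% called higher. The median difference of the 33 genes was -2.47, with a range of -7.69 to 0.23, where the median over all probes was 0.02. In 23 genes the highest of the 4 otosphere samples was still under the lowest of the 3 CSE samples, which held for 12.7% of all probes. Every gene of the intermediate filament, dense-core granule and RNA-binding groups was called lower, together with 4 of 6 microtubule genes, 2 of 5 synaptic vesicle genes and 1 of the 4 further proteins, and no growth cone gene or transcription factor was. Within slide 1 the median difference of the 33 genes was -3.36, where that over all probes was 0.004. Within slide 2, where CSE3 was the single CSE sample, these medians were -2.12 and 0.02. In bulk RNA, fewer cells with these transcripts and less RNA per cell cannot be told apart. Which cells made the transcripts was not tested.

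Markers of other cell types were compared as well, and the lists differed in how many of their genes were called. Of 20 hair cell markers 11 were lower in otospheres than in CSE, as were 12 of 15 supporting cell markers. Of 16 markers of Schwann and satellite glia 7 were lower and 2 were higher. Of 12 fibroblast and mesenchymal markers 1 was called lower and none higher. These counts stand beside 6.19% of all probes called lower and 4.84% called higher. Uncalled or not, 11 of the 12 mesenchymal differences were below 0, with a median of -1.64, beside -1.57 for the glial list. The median over all probes was 0.02. The largest falls were those of Pvalb (-3.79) and Ush1c (-3.54) among hair cell markers, Hes5 (-7.37) and Tectb (-5.88) among supporting cell markers, and Fabp7 (-6.91) and S100b (-4.12) among glial markers, and the glial genes that rose were Mal (2.42) and Mbp (1.90). As the mean of the list after each gene was centred on its 9 samples, hair cell markers lay at -1.47 to 0.61 in otospheres and at 1.39 to 1.81 in CSE, supporting cell markers at -0.81 to -0.17 and at 2.17 to 2.53, glial markers at -0.42 to 0.26 and at 1.25 to 1.69, and fibroblast and mesenchymal markers at -2.34 to 1.87 and at 1.95 to 2.46. For the 33 neuronal genes the same mean was -1.53 to -1.02 in otospheres, 1.12 to 1.92 in CSE, and 0.06 and -0.05 in the ESC samples. One hair cell marker, 1 supporting cell marker and no glial or mesenchymal marker was below background on all otosphere arrays. The part of cell composition in the neuronal differences was not tested.

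**Figure D2:**
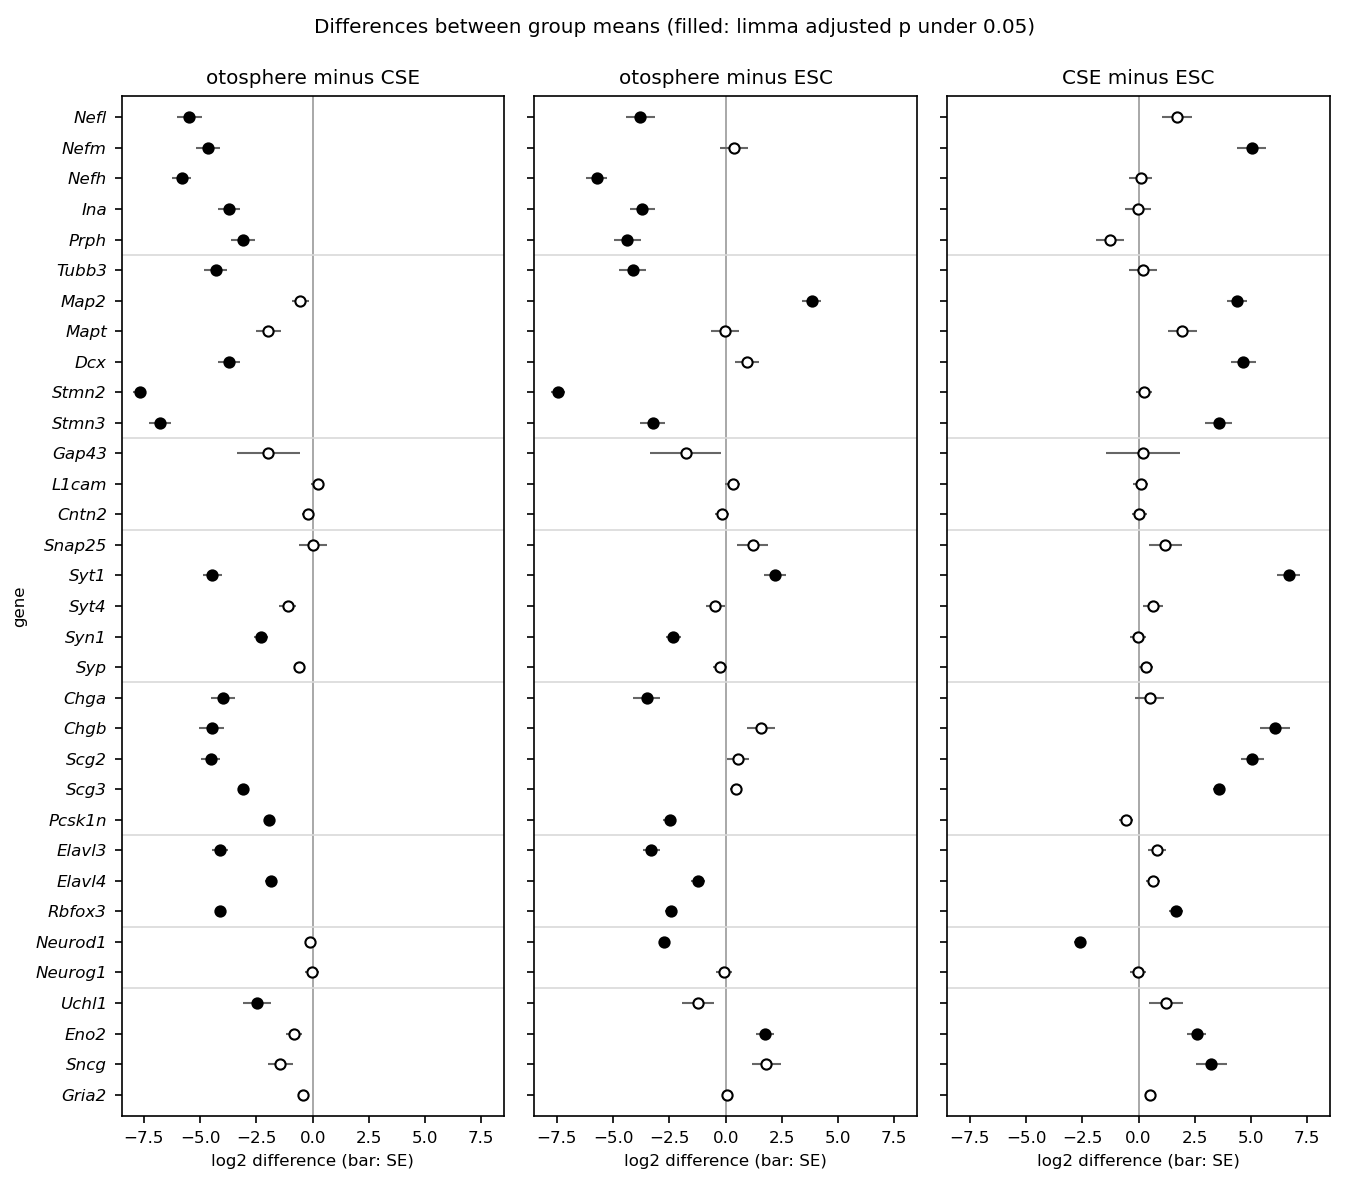
Log2 differences between group means for the 33 genes in the 3 comparisons, with SE bars; filled circles passed an adjusted p of 0.05 and open circles did not. In the left panel filled circles lie between -7.69 and -1.86; the panels share samples, so their values are not independent.

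The neuronal intermediate filaments are the 3 neurofilament subunits (Nefl, light; Nefm, medium; Nefh, heavy), alpha-internexin (Ina), which joins them, and peripherin (Prph), which in the mature ganglion is known from type II neurons. Nefh read 12.20 and 12.93 in ESCs, 7.02, 6.29, 7.15 and 6.86 in otospheres, and 13.44, 12.88 and 11.65 in CSE. Nefl read 10.93 and 11.16, then 7.61, 5.73, 7.84 and 7.83, then 13.41, 12.94 and 11.85. For both genes every otosphere sample lay below every other sample. ESCs overlapped with CSE for Nefh, whereas for Nefl they lay below every CSE sample. Nefm read 6.10 and 7.45 in ESCs, 7.26, 5.85, 7.68 and 7.82 in otospheres, and 12.33, 12.01 and 11.08 in CSE, so here the ESC samples overlapped with the otospheres and only CSE was high.

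From CSE to otospheres, Nefh fell by 5.83 (SE 0.42, limma adjusted p = 0.000109), a 56.7-fold difference. Nefl fell by 5.48 (SE 0.56, adjusted p = 0.000541) and Nefm by 4.66 (SE 0.54, adjusted p = 0.00102). In the authors' own log2 table the Nefm difference was -0.51, which did not pass the test (adjusted p = 0.109). Ina read 10.79 and 12.35 in ESCs, 7.95, 7.48, 7.89 and 8.12 in otospheres, and 12.61, 11.39 and 10.69 in CSE. Prph read 10.67 and 8.23 in ESCs, 5.07, 4.88, 5.28 and 5.08 in otospheres, and 8.81, 8.26 and 7.5 in CSE, and only 1 of the 6 otosphere arrays was above background for it. Both were lowest in otospheres, and from CSE to otospheres Ina fell by 3.70 (SE 0.49, adjusted p = 0.00183) and Prph fell by 3.11 (SE 0.53, adjusted p = 0.00607).

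Against ESCs, otospheres were also lower for Nefh (-5.74, SE 0.47, adjusted p = 5.16e-05), Prph (-4.37), Nefl (-3.79) and Ina (-3.71), all called. The Nefm difference was 0.38 (adjusted p = 0.707). Between CSE and ESCs, Nefm was the single filament gene called, higher in CSE by 5.03 (SE 0.65, adjusted p = 0.000528), a call that was lost in the authors' table (0.54, adjusted p = 0.0826). The Nefh difference between CSE and ESCs was 0.09 (SE 0.50, adjusted p = 0.924), and that of Ina was -0.01 (SE 0.58, adjusted p = 0.995). That of Nefl was 1.69 (SE 0.67, adjusted p = 0.0937), and it was called without OS3 (adjusted p = 0.0165) and with every array as a sample and the replicate number as a block (2.22, adjusted p = 0.00354).

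Among the microtubule genes, the stathmins Stmn2 (SCG10, found in growing axons) and Stmn3, which bind free tubulin, had the largest falls of the list. Stmn2 read 12.81 and 13.04 in ESCs, 5.88, 5.17, 5.77 and 5.05 in otospheres, and 13.47, 13.39 and 12.59 in CSE. Stmn3 read 9.78 and 9.19, then 6.13, 5.29, 6.47 and 7.08, then 13.33, 13.76 and 12.04. For Stmn2 the otospheres stood far below ESCs and CSE, which overlapped, and 2 of the 6 otosphere arrays were not above background for it. Stmn2 fell by 7.69 from CSE to otospheres (SE 0.29, adjusted p = 6.21e-06), a 206-fold difference, and Stmn3 fell by 6.80 (SE 0.49, adjusted p = 0.000117), a 112-fold difference. Stmn2 did not differ detectably between CSE and ESCs (0.23, SE 0.35, adjusted p = 0.682), whereas Stmn3 was higher in CSE by 3.56 (adjusted p = 0.002).

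Tubb3, the neuronal beta-tubulin, read 11.89 and 12 in ESCs, 6.95, 7.03, 8.70 and 8.57 in otospheres, and 12.53, 12.59 and 11.27 in CSE. Its otosphere samples fell into a lower pair on slide 1 and a higher pair on slide 2, both far below CSE, and the difference was -4.31 (SE 0.52, adjusted p = 0.00121). Dcx, doublecortin of young neurons, read 4.69 and 4.76 in ESCs, 5.07, 5.62, 6.36 and 5.65 in otospheres, and 10.13, 9.90 and 8.12 in CSE. On ESC arrays it was never above background, on 3 of the 6 otosphere arrays it was, and CSE stood alone. The fall from CSE to otospheres was 3.71 (SE 0.48, adjusted p = 0.00171), and CSE was at least 16-fold higher than ESCs, where the bound sets the lowest signal still above background on each ESC array in place of a dimmer reading. Both further probes of Dcx were dim. The first, above background on 4 of the 6 otosphere and all CSE arrays, gave -0.82 between otospheres and CSE, and the second was above background on 2 CSE arrays alone. With the mean over the probes, the difference was -1.68 and still called (adjusted p = 0.00427).

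Map2 and Mapt were not called between otospheres and CSE. Map2, the microtubule-associated protein of dendrites, read 5.72 and 6.42 in ESCs, 9.69, 9.01, 10.52 and 10.34 in otospheres, and 10.72, 10.55 and 10.07 in CSE. Otospheres overlapped with CSE (-0.56, SE 0.38, adjusted p = 0.483) and exceeded ESCs by 3.82 (SE 0.43, adjusted p = 0.000259), a 14.1-fold difference, and the dimmer probe of the gene gave -0.30 against CSE and was above background on no ESC array. Mapt, the axonal protein tau, read 11.93 and 9.55 in ESCs, 10.42, 11, 10.52 and 10.92 in otospheres, and 13.16, 13.09 and 11.81 in CSE. All otosphere samples of Mapt lay below CSE, but the difference of -1.97 (SE 0.54, adjusted p = 0.0516) did not pass the test.

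None of the 3 growth cone and adhesion genes was called in any comparison. Gap43, a protein of growth cones that glial precursors can also make, read 10.93 and 12.26 in ESCs, 11.84, 12.37, 9.19 and 5.88 in otospheres, and 12.24, 12.35 and 10.77 in CSE. Its otosphere samples spanned 6.49, the widest range of the 33 genes, with OS1-2 and OS3 at the level of CSE and OS6 far below all other samples. The difference from CSE was -1.97 (SE 1.39, adjusted p = 0.511). L1cam, an axonal adhesion molecule, stayed between 6.97 and 8.39 in all 9 samples, and its difference between otospheres and CSE was 0.23 (SE 0.29, adjusted p = 0.776). Cntn2, which codes for contactin 2, lay between 5.33 and 6.21 in all samples, close to background.

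**Figure D3:**
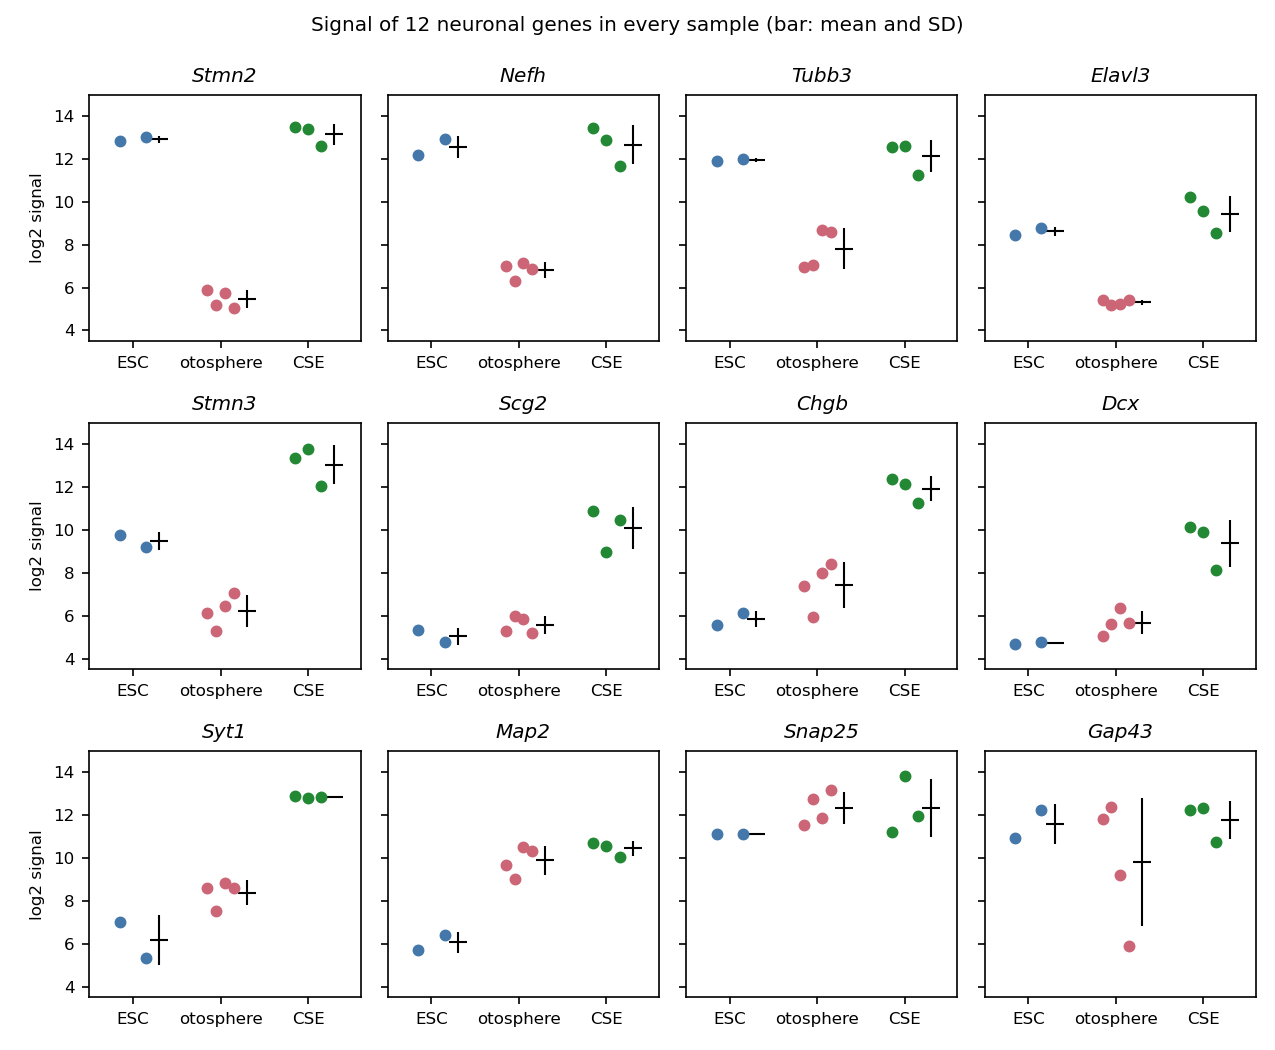
Log2 signal of 12 genes in every sample, blue for ESCs, red for otospheres and green for CSE; the black cross beside each group is the mean with the SD. Stmn2, Nefh, Tubb3 and Elavl3 are low in otospheres alone, Scg2, Chgb, Dcx and Syt1 are high in CSE alone, and the otosphere values of Map2 and Snap25 reach the CSE values.

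The synaptic vesicle genes behaved unlike each other. Syt1, the calcium sensor of fast release, read 7.02 and 5.36 in ESCs, 8.59, 7.51, 8.84 and 8.62 in otospheres, and 12.91, 12.79 and 12.86 in CSE. The groups did not overlap, with CSE at the top and otospheres between CSE and ESCs. From CSE to otospheres Syt1 fell by 4.46 (SE 0.42, adjusted p = 0.000383), a 22.0-fold difference, and otospheres exceeded ESCs by 2.20 (SE 0.48, adjusted p = 0.00813). Without the ESC sample ES2 the difference from ESCs was 1.38 and lost its call (adjusted p = 0.0647).

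Syn1, the vesicle-tethering synapsin I, read 9.54 and 9.36 in ESCs, 7.26, 7.21, 7.29 and 6.74 in otospheres, and 10.20, 9.02 and 9.05 in CSE. Here ESCs and CSE overlapped and otospheres were lower than both, with a difference of -2.30 from CSE (SE 0.30, adjusted p = 0.00179) and of -2.32 from ESCs (SE 0.34, adjusted p = 0.00107). Within slide 1 the difference from CSE was -2.38 and lost its call (adjusted p = 0.058). Snap25, a membrane SNARE protein of release, read 11.14 and 11.11 in ESCs, 11.53, 12.73, 11.89 and 13.19 in otospheres, and 11.20, 13.82 and 11.94 in CSE. Otospheres and CSE overlapped over their whole range for Snap25, and the difference was 0.02 (SE 0.61, adjusted p = 0.995). Snap25 was highest in CSE2, OS6 and OS3, and so were Rab3c, Dcc and Dnajc5, genes of the further lists below. The reason for this shared pattern was not tested, and it limits the reading of the single Snap25 probe. Syp, the vesicle protein synaptophysin, was bright on all arrays, with 10.47 to 11.47 in otospheres beside 11.53, 11.13 and 11.78 in CSE (-0.59, SE 0.26, adjusted p = 0.226). Syt4, a synaptotagmin, was dim throughout, with 4.93 and 6.35 in ESCs, 5.65, 5.39, 4.93 and 4.76 in otospheres, and 6.69, 6.37 and 5.81 in CSE. CSE overlapped with ESCs for it, and the difference between otospheres and CSE was -1.11 (adjusted p = 0.107).

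All 5 dense-core granule genes were lower in otospheres than in CSE. They code for the granins Chga, Chgb, Scg2 and Scg3, which fill and sort the granules, and for Pcsk1n (proSAAS), an inhibitor of a prohormone convertase. Scg2 read 5.32 and 4.76 in ESCs, 5.27, 6.0, 5.83 and 5.18 in otospheres, and 10.87, 8.99 and 10.45 in CSE. Chgb read 5.59 and 6.12, then 7.39, 5.94, 7.98 and 8.43, then 12.39, 12.15 and 11.25. Scg3 read 7.34 and 7.65, then 7.66, 7.77, 8.06 and 8.33, then 11.39, 11.15 and 10.64. These 3 genes were high in CSE and low in both cultured groups.

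Scg2 fell by 4.53 from CSE to otospheres (SE 0.43, adjusted p = 0.000401), a 23.1-fold difference, and CSE was at least 25.6-fold higher than ESCs, where no array was above background. Chgb fell by 4.49 (SE 0.55, adjusted p = 0.00134), though in the authors' log2 table its difference was -0.46 (adjusted p = 0.138), and Scg3 fell by 3.1 (SE 0.24, adjusted p = 0.000141). Between CSE and ESCs the differences were 6.07 for Chgb (adjusted p = 0.000225) and 3.57 for Scg3 (adjusted p = 4.41e-05). Chga followed the other pattern, with 11.31 and 10.93 in ESCs, 7.38, 6.10, 8.27 and 8.68 in otospheres, and 11.56, 11.56 and 11.70 in CSE, and so did Pcsk1n, with 10.87 and 11.21, then 8.86, 8.08, 8.46 and 8.81, then 10.95, 10.31 and 10.16. Otospheres were below both other groups in every sample of these genes. For Chga the difference was -4.0 from CSE (SE 0.53) and -3.51 from ESCs (SE 0.60), and for Pcsk1n it was -1.92 (SE 0.26) and -2.49 (SE 0.30), and all 4 were called. Within slide 1 the Pcsk1n difference from CSE was -2.16 and lost its call (adjusted p = 0.0543).

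By their brightest probes, the 3 RNA-binding genes were lower in otospheres than in either other group. Elavl3 (HuC), a neuronal protein of the Hu family, read 8.47 and 8.78 in ESCs, 5.42, 5.21, 5.22 and 5.41 in otospheres, and 10.20, 9.56 and 8.55 in CSE. It was above background on no otosphere array, and CSE was at least 17.4-fold higher (adjusted p = 0.000191) and ESCs at least 9.95-fold higher (adjusted p = 0.000301). Rbfox3, which codes for the neuronal nuclear antigen NeuN, read 8.93 and 8.12, then 5.75, 5.86, 6.26 and 6.49, then 10.21, 10.27 and 10.10. It fell by 4.10 from CSE to otospheres (SE 0.25, adjusted p = 5.28e-05), and 2 dimmer probes gave -1.46 and -2.12. Elavl4 (HuD) read 9.76 and 9.76, then 8.80, 8.46, 8.42 and 8.47, then 10.63, 10.87 and 9.70. With this probe its differences were smaller, -1.86 against CSE (adjusted p = 0.00288) and -1.22 against ESCs (adjusted p = 0.0163). Leaving out either ESC sample ended the second call (adjusted p = 0.0718 and 0.0711). Another probe of Elavl4 was above background on all 3 CSE arrays and on no otosphere or ESC array. That probe gave -3.36 between otospheres and CSE and -0.27 between otospheres and ESCs. With the mean over the probes, the difference from ESCs was -0.74 and lost its call (adjusted p = 0.132).

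The proneural transcription factors did not separate otospheres from CSE. Neurod1, which otic neuroblasts need, read 7.84 and 7.63 in ESCs, 5.20, 4.72, 5.31 and 4.82 in otospheres, and 5.43, 5.09 and 4.86 in CSE. It was above background on no otosphere array and on 1 of the 3 CSE arrays, and CSE was lower than ESCs (-2.61, adjusted p = 0.000119), the single gene called lower in that comparison. ESCs were at least 6.21-fold higher than otospheres (adjusted p = 7.28e-05). Neurog1, which acts before Neurod1 in the otic neuroblasts, lay between 5.53 and 6.68 in all 9 samples and was called nowhere.

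Of the further proteins, Uchl1 (PGP9.5), a ubiquitin hydrolase abundant in neurons, read 10.86 and 11.10 in ESCs, 9.53, 7.88, 10.75 and 10.79 in otospheres, and 11.97, 12.16 and 12.49 in CSE. Its difference from CSE was -2.47 (SE 0.63, adjusted p = 0.0381), and the call was lost without any 1 of the 3 CSE samples, without either ESC sample and without OS1-2, with adjusted p up to 0.134. Eno2, the neuronal enolase of glycolysis, read 9.13 and 8.57, then 10.15, 11.36, 10.25 and 10.62, then 11.92, 11.41 and 10.95, so that otospheres overlapped with CSE (-0.83, adjusted p = 0.188) and exceeded ESCs by 1.75 (adjusted p = 0.00907). The latter call was lost without ES2 (1.47, adjusted p = 0.0744). Sncg, gamma-synuclein, read 10.63, 9.13, 10.34 and 11.16 in otospheres beside 12.38, 12.01 and 10.86 in CSE (-1.44, adjusted p = 0.162). Gria2, a subunit of AMPA-type glutamate receptors, was above background on 1 of the 11 arrays, a CSE array, so that nothing can be said of its level elsewhere.

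Against ESCs, 14 of the 33 genes were lower in otospheres and 3 were higher (Map2, Syt1 and Eno2), beside 15.6% of all probes lower and 12.1% higher. The median of the 33 differences was -0.46, where that of all probes was -0.03. CSE compared with ESCs gave 11 genes higher, beside 13.2% of all probes, and 1 lower, beside 15.6%, with a median of 0.65 against -0.06 over all probes. The genes showed contrasting patterns. Stmn2, Nefh, Tubb3, Ina and Syn1 differed between CSE and ESCs by at most 0.23 in size, none of them called, which does not show that the levels were equal, and all 5 were called lower in otospheres than in either. Syt1, Chgb, Scg2, Nefm and Dcx were higher in CSE than in ESCs by 4.66 to 6.67, and among these 5 Syt1 alone was called between otospheres and ESCs. The comparisons share their ESC, otosphere or CSE samples, so the values stand side by side and are not independent.

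The otosphere samples differed among themselves, and more so for some genes than others. Over the 33 genes the range among the 4 samples had a median of 0.99 and went from 0.11 for Gria2 to 6.49 for Gap43. Both samples of OS4 to OS6 were above both samples of OS1 to OS3 in 13 genes, beside 27.8% of all probes, and below in 3, beside 17.5%. Those above included Uchl1 (by 2.06 on average), Chga (1.74), Tubb3 (1.64) and Chgb (1.54), and those below were Gap43 (-4.57), Syt4 (-0.68) and Neurog1 (-0.56). The 2 sets were also on different slides, so set and slide cannot be told apart. CSE3, the CSE sample of the second slide, was below CSE1 and CSE2 in 24 of the 33 genes, beside 30.6% of all probes, with a median difference of -0.71.

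Markers of other cell types also differed between these sets. Of the 20 hair cell markers, 19 were higher in both samples of OS4 to OS6 than in both of OS1 to OS3 and none was lower, beside 27.8% and 17.5% of all probes. Their centred list means were -0.83, -1.47, 0.22 and 0.61, in the order OS1-2, OS3, OS4-5 and OS6. Of the 12 fibroblast and mesenchymal markers, 10 were lower in OS4 to OS6 and 1 was higher, with centred means of 1.44, 1.87, 0.23 and -2.34. The 16 markers of Schwann and satellite glia divided, with 5 lower in OS4 to OS6, 5 higher and centred means of 0.26, -0.17, -0.26 and -0.42. Among the glial markers Foxd3, a neural crest factor, read 7.99, 7.40, 4.94 and 4.64, lower in OS4 to OS6 as Gap43 was. Those higher in OS4 to OS6 were the glial transcription factor Sox10, the myelin genes Mbp, Pmp22 and Mal, and the neuregulin receptor Erbb3, for example Sox10 with 12.55, 12.29, 13.58 and 13.66. Of the 8 neurotrophin and survival receptors 4 were lower in OS4 to OS6 and 1 was higher, and among the lower ones Ngfr read 11.22, 10.43, 8.12 and 7.25 and Ntrk2, the BDNF receptor, 13.25, 13.74, 11.01 and 9.38. The part of these cell types in the differences among otosphere samples was not tested.

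**Figure D4:**
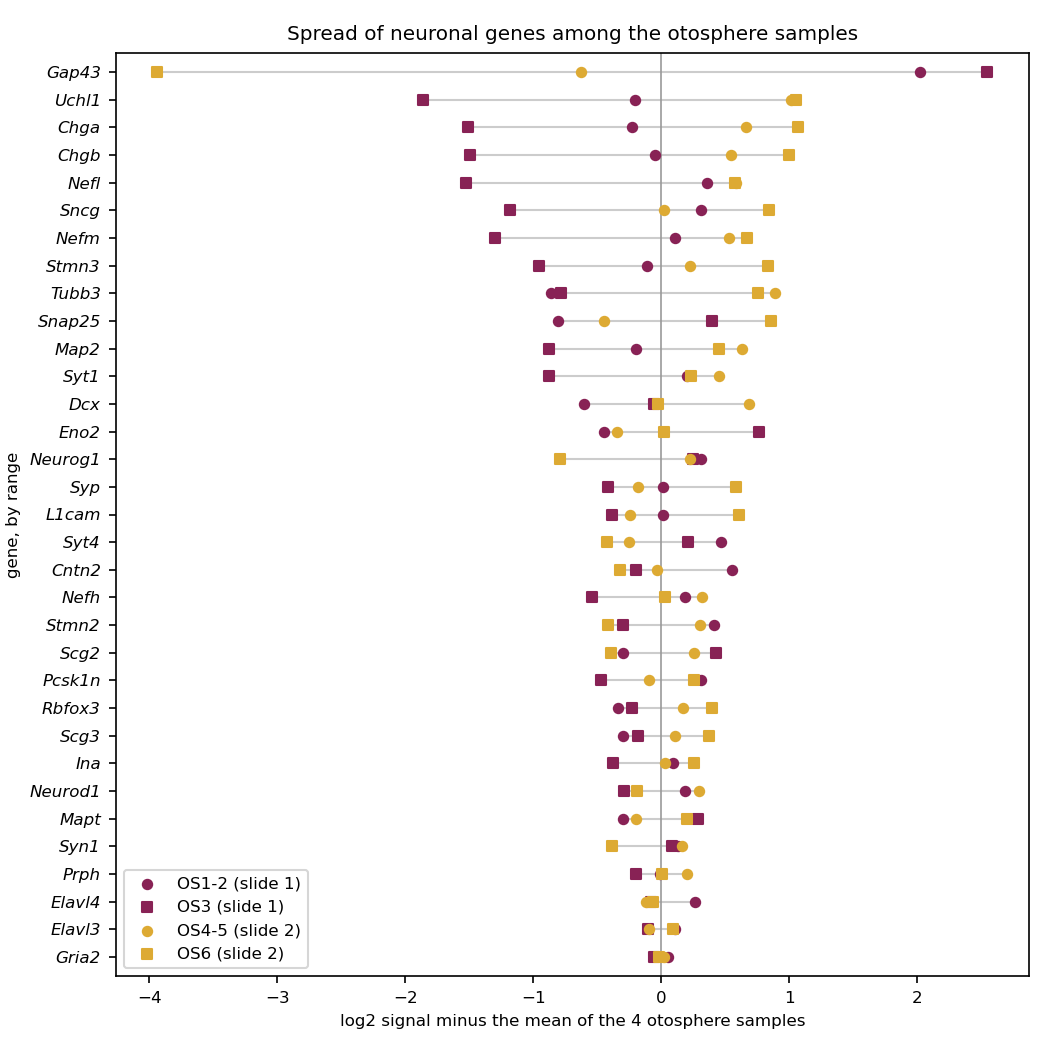
Log2 signal of each otosphere sample minus the mean of the 4, with genes ordered by range and a grey line from the lowest to the highest sample; purple marks slide 1 and yellow slide 2. Gap43 has a range of 6.49, with both slide 1 samples at the top, while in Uchl1, Chga and Chgb both slide 2 samples are at the top.

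REST binds a DNA element whose left and right parts read TTCAGCACC and GGACAG in the form searched here, on both strands. The promoter windows of RefSeq (GRCm38.p6), from 250 bases before to 50 bases after each gene start, held 31 windows of 25 of the 33 genes. The left part occurred in 2 of these windows, those of Syn1 and Scg2 (6.45%), and in 0.371% of all 32851 windows. GGACAG alone occurred in 19.4% of the windows of these genes and in 22.2% of all windows. No window of the 33 genes held exact matches of both parts 1 to 9 bases apart, and the search allowed no mismatch. In the Syn1 window the left part is followed by gc and then ggtcag, which differs from GGACAG in 1 letter. In the Scg2 window both parts adjoin with no base between them, a spacing looked for after that window had been seen, and 2 of all windows hold it. The letters of these 2 genes are shown because only their windows, among those of the 33 genes, held the left part. Stmn2, Nefh and Nefl, which had large falls from CSE to otospheres, were among the genes without a window. Capitals mark the left part, which in Scg2 runs on the opposite strand and across the gene start.
Syn1 (chrX:20920919-20921168, minus strand, the bases before the start): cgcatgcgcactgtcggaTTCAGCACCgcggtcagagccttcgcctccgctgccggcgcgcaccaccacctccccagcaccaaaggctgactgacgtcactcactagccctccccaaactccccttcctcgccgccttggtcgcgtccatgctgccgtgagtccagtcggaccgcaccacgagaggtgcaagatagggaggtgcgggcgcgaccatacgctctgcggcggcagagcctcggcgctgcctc
Scg2 (chr1:79440017-79440046, minus strand, around the start): cgaggagctgtccGGTGCTGAAacggcccg

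The windows of the 33 genes had a median GC content of 59.0% and a median of 16 CpG sites, where all windows had 52.7% and 7. A match of letters is a description and was not tied to binding. Rest itself read 12.64 and 12.90 in ESCs, 11.02, 11.08, 10.82 and 10.86 in otospheres, and 10.76, 11.66 and 10.58 in CSE. Otospheres and CSE overlapped for Rest (-0.05, adjusted p = 0.958), and ESCs were above both (otospheres minus ESCs -1.83, adjusted p = 0.00164). Of 10 repressors of neuronal genes (REST, proteins that act with it, the splicing repressor Ptbp1 and the Notch target Hes1), 2 were lower in otospheres than in CSE, Rcor2 (-2.22, adjusted p = 0.00182) and Ptbp1 (-0.71, adjusted p = 0.0182), and none was higher. Over all probes, 6.19% were called lower in otospheres than in CSE and 4.84% higher.

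Further neuronal gene lists were measured on the same arrays, with the list members outside the 33 genes unless named as shared. Their counts stand beside 6.19% of all probes called lower in otospheres than in CSE and 4.84% called higher. Among 27 presynaptic genes 11 were lower in otospheres than in CSE and none was higher (median -0.82), led by Cplx1, a complexin that clamps the SNARE complex (-5.37, adjusted p = 9.56e-05), and Amph, amphiphysin (-3.01). The vesicular glutamate transporters Slc17a6 and Slc17a7 were both called, with Slc17a6 lower (-1.86) and Slc17a7, above background on no otosphere array, at least 1.81-fold higher in CSE. Of 24 genes of axonal cytoskeleton and transport 9 were lower and none was higher (median -0.98), led by the axonal kinesin Kif5a (-5.93, adjusted p = 8.14e-05) and the stathmin Stmn4 (-3.90). The difference of Map1b was -0.99 (adjusted p = 0.0832).

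Dense-core vesicle and neuropeptide processing had 5 of 14 genes lower and none higher (median -0.78), with Resp18, above background on no otosphere array, at least 17.6-fold higher in CSE and Cadps, which primes these vesicles, at -3.23. In adhesion and guidance 10 of 20 were lower and 1 was higher (median -1.48). The lower genes included Nrcam, an axonal adhesion molecule (-3.20), and the 1 higher gene was Thy1 (3.12, adjusted p = 0.00709), a surface protein of many cell types. The RNA-binding list had 3 of 12 lower and none higher (median -0.60), with Elavl2, again above background on no otosphere array, at least 9.53-fold higher in CSE and Celf3 at -1.90.

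Of 20 tested neuronal transcription factors 14 were lower in otospheres and 1 was higher (median -1.43). Among the lower ones Nhlh2, Myt1, Neurod6 and Shox2 were dim in CSE, with means of 5.28 to 5.78, and above background on no otosphere array. Prox1, also called lower, is on the list of supporting cell markers as well. The repressor Scrt1 had the largest fall (-4.74, adjusted p = 8.7e-05), followed by Pou4f2 (-3.08), and Runx1 was higher (2.04). The ganglion factors Isl1, Gata3 and Pou4f1 were lower (-1.88, -2.10 and -1.52) and differed in where else they were seen. Isl1 read 5.64 and 5.21 in ESCs, 9.61, 9.41, 10.45 and 10.31 in otospheres, and 11.56, 12.10 and 11.82 in CSE. Gata3, also a gene of the sensory epithelium, exceeded ESCs in otospheres by 4.15, as Isl1 did by 4.52, while Pou4f1 was lower in otospheres than in ESCs (-1.98, adjusted p = 0.00558).

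Excitability genes gave 10 of 23 lower and 1 higher (median -0.66), with Gng3, a neuronal G protein subunit, at -5.02 (adjusted p = 0.000116), the axonal potassium channel Kcna1 at -4.43 and the sodium pump subunit Atp1b1, common in epithelia, at 1.71 as the higher one. Of 8 neurotrophin and survival receptors 4 were lower and none was higher (median -1.64), namely Ntrk3, the NT-3 receptor (-3.49, adjusted p = 0.0114), and the 3 GDNF family receptors Gfra2 (-3.11), Gfra1 (-1.79) and Gfra3 (-1.50). Ntrk2 was not called (1.08, adjusted p = 0.614), with otosphere values that spanned those of CSE. Of 18 markers of ganglion subtypes, which share Prph with the 33 genes and others, among them Gata3, Pou4f1, Runx1 and Ngfr, with other lists, 9 were lower and 1 was higher (median -1.44), led by Lypd1 (-4.24, adjusted p = 5.18e-05).

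The genes outside these lists whose signal was most like the mean of the 33 genes, by Pearson's correlation over the 11 arrays among 18270 genes, were Cacng4 (r = 0.988), Fbll1 (0.987), Oprl1 (0.987), Eef1a2 (0.985), Sez6l2 (0.984) and Tmem130 (0.983). These correlations run across arrays of 3 groups and mostly describe the differences between groups. Among the 33 genes themselves, the correlation with the mean of the other 32 was highest for Stmn3 (0.993), Rbfox3 (0.969) and Nefl (0.963) and lowest for L1cam (-0.23) and Neurog1 (-0.14).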

How the data were processed

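RNA of the 11 samples was labelled with Cy3 and hybridized to 1-colour Agilent mouse arrays of 62976 spots, and the sources do not say which sample had 50 and which 100 ng of RNA. For each spot, the scanner output deposited by the authors gives a median signal intensity and a local background intensity, neither normalized between arrays (Feature Extraction 10.7.3.1), and a processed intensity used in an alternative. The authors' own log2 values, which per the labels were made with limma and per the methods were quantile-normalized, were used in an alternative.

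The background was corrected by normexp with an offset of 16 (limma 3.58.1, R 4.3.3). Values were then put on the log2 scale and quantile normalization was run across the 11 arrays on all spots. Control and outlier spots were left out afterwards, when the spots of a probe were averaged. A probe was kept (47997 of 55681) if on 2 arrays or more it exceeded, by 10% or more, the 95th percentile of the array's 308 negative controls. Accessions named 26762 probes through a RefSeq table (GRCm38.p6), for 20284 genes. OS1 with OS2 and OS4 with OS5 had a spread of 0.997 and 0.452 times that between spots and were averaged. The other 17 pairs within a group had at least 1.76 times.

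Group means were compared with limma (empirical Bayes), adjusting by Benjamini-Hochberg over all kept probes, at a threshold of 0.05. The fit was tested on simulated data. A bound written as at least N-fold compares the mean of the brighter group with a floor for the dimmer one, which per array is the dim probe's signal or the faintest signal flagged well above background, whichever is higher. Fold changes are on the scale with offset 16. Alternatives were offsets of 0 and 50, scaling of the processed signal to the 75th percentile, the authors' table, other filters and probe choices, every array as a sample with and without the replicate number as a block, slides, and each sample left out in turn.

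The 33 genes and the other gene lists were chosen with earlier results of these data known. All 33 genes may be named. Values in every sample were given for the genes with the 8 largest and 4 smallest differences in each comparison and for genes that lead a functional group. From each further list the counts, the 2 largest falls and the 2 largest rises called between otospheres and CSE were given, together with Rest, Ptbp1, Ntrk2, Ntrk3, Isl1, Pou4f1, Gata3, Map1b, Gng3, Slc17a6 and Slc17a7. Foxd3, Ngfr, Nanog, Hes1, Nhlh2, Myt1, Neurod6, Shox2, Prox1, Rab3c, Dcc, Dnajc5, the glial markers higher in OS4 to OS6 and the groups of 5 genes set side by side were chosen after their values were seen. Some genes that this rule names are not reported here.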

Additional observations from a re-analysis of the deposited data

Results flagged for a closer look

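In 4 of the 33 genes 1 of the 4 otosphere samples stood apart from the other three, by a gap larger than Dixon's 95% limit, which chance passes in about 1 of 20 groups. Nefl had its lowest value in OS3, at 5.73, where the others lay at 7.61 to 7.84. Syn1 was lowest in OS6, at 6.74, with the others at 7.21 to 7.29. Elavl4 was highest in OS1-2, at 8.80, with the others at 8.42 to 8.47. Neurog1 was lowest in OS6, at 5.53, with the others at 6.54 to 6.63.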

How the results depend on the processing

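Of the calls over the 33 genes, 15 of 20 between otospheres and CSE, 14 of 17 between otospheres and ESCs and 10 of 12 between CSE and ESCs held in every alternative run, and none reversed. Over the 2166 alternative values of single genes, 23 lost a call, 38 gained one and 82 changed sign with no call on either side. Within slide 2, Nefh was lower in CSE than in ESCs (-1.28, adjusted p = 0.0401) and Mapt higher in otospheres than in ESCs (1.17, adjusted p = 0.0393), both opposite in sign to the uncalled values over both slides. Fits within a slide hold groups of 1 sample, whose spread is taken from the other groups.

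The 3 genes higher in otospheres than in ESCs became 5 with every array as a separate sample, 1 within slide 1, 6 within slide 2 and 1 to 5 with single samples left out. The 1 gene lower in CSE than in ESCs became 2 within slide 1, 3 within slide 2 and 1 to 2 with single samples left out. The median between otospheres and CSE was -2.79 with probes bright on 3 arrays, -2.98 with the 75th percentile scaling, -3.36 within slide 1, -2.12 within slide 2 and -2.82 to -2.47 without single samples. The median between otospheres and ESCs was -0.97 in the authors' table, -0.84 with probes bright on 3 arrays, -1.12 with the 75th percentile scaling and -1.17 to -0.37 without single samples. The 75th percentile scaling moved the median of all probes to -0.31 in that comparison and to -0.28 between CSE and ESCs. The median between CSE and ESCs was 1.00 with offset 0, 1.21 within slide 1 and 0.51 to 0.99 without single samples. The causes were not tested.

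With the replicate number as a block and every array as a sample, the medians were -3.18 between otospheres and CSE, 0.00 between otospheres and ESCs and 0.87 between CSE and ESCs, with 21 genes lower in otospheres than in CSE. Deviations of same-numbered otosphere and CSE arrays correlated at 0.356, -0.340 and -0.392, so the numbers do not pair the samples. The number of arrays and the signal over background limit the precision for Cntn2, Gria2, Neurod1, Neurog1 and Syt4.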
